A study of Mus musculus with 9 samples.

Results

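The TGF-beta and activin pathway was described through 10 genes in 4T1 mammary carcinoma cells and in 2 lines selected from them with chemotherapy. The genes encode the ligands TGF-beta 1, 2 and 3 (Tgfb1, Tgfb2, Tgfb3), the beta subunits of activin (Inhba, Inhbb), the activin-binding protein follistatin (Fst), the receptors Tgfbr1 and Tgfbr2, the signal transducer Smad3 and the inhibitory Smad7. They were chosen by name, with earlier results of these data known. Each was read from the single probe set that the array annotation ties to that gene alone, which gave 10 of the 19938 genes measured. Expression was measured on 9 arrays, with 3 wells for each line. 4T1 is a mouse mammary adenocarcinoma line, kept without drug. MR20 cells are all survivors of methotrexate selection of up to 2 weeks, at 20 µg/ml in the sample labels and at 20 ng/ml in the study's text, followed by 2 weeks without drug. DR500 cells survived rising doses of doxorubicin up to 500 ng/ml, although the treatment field of their labels names methotrexate. The labels put this selection at up to 2 weeks, whereas the study's methods describe successive dose steps of 1 week each, then 2 weeks in medium without drug. Each selected line comes from a single selection, so its 3 wells share that history. The labels call the 4T1 and MR20 arrays biological replicates and the DR500 arrays samples, and the study's methods describe triplicate wells. P-values therefore measure the spread between these samples and not between independent selections. Array batches are not given in the sources used here, and a batch that held 1 line alone cannot be told apart from the line.

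TGF-beta and activin dimers bind a type II receptor, which phosphorylates a type I receptor, and the type I receptor in turn phosphorylates Smad2 and Smad3. These join Smad4, enter the nucleus and regulate target genes, among them Smad7, which blocks the type I receptor in a negative feedback. Follistatin holds activin away from its receptors. In mammary carcinoma the pathway is known both for slowing growth and for driving the loss of epithelial traits.

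The promoters of 3 members are shown because they stand for the different responses in DR500 cells, the fall of Inhba and the rises of Smad3 and Tgfb1. The stretches are the 250 bases before the transcription start that RefSeq gives on GRCm38.p6, read 5′ to 3′ on the strand of the gene. Capitals mark any match, on either strand, to 6 motifs. They are the Smad box CAGAC, its palindrome GTCTAGAC, the TATA box TATAAA and the GC box GGGCGG. The others are the cyclic AMP response element TGACGTCA and TGANTCA, an AP-1 pattern searched with any base at N. The palindrome holds no CAGAC, and no other motif contains another.
Inhba, chr13:16011601-16011850, plus strand: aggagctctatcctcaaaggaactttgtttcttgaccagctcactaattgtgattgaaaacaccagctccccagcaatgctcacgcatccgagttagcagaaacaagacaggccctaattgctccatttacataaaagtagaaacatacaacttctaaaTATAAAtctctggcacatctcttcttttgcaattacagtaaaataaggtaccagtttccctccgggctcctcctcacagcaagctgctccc
Smad3, chr9:63757995-63758244, minus strand: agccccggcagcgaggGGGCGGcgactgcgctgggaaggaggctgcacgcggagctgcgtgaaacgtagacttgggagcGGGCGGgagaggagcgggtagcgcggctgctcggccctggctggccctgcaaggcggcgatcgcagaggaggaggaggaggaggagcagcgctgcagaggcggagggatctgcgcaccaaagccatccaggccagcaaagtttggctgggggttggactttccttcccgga
Tgfb1, chr7:25686752-25687001, plus strand: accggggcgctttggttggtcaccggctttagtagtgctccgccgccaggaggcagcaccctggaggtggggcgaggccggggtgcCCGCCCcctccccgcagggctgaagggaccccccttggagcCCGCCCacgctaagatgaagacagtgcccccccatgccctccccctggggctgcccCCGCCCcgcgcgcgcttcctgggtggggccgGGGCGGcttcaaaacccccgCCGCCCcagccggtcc
The Inhba stretch held 43.2% G and C and 1 TATA box, 91 bases before the start, and none of the other motifs. The Smad3 stretch held 69.2% G and C and 2 GC boxes, and the Tgfb1 stretch 75.2% and 5 GC boxes. Over the 32851 stretches of this length searched in the RefSeq set, which left out 1 chromosome, the median was 52.4% G and C. A TATA box was found in 12.4% of them, a GC box in 32.7%, a Smad box in 42.2% and its palindrome in 0.167%. The AP-1 pattern, with any base at N, was found in 6.75% and a cyclic AMP response element in 1.55%. These matches describe the letters of the stretches, and no binding was measured.

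In MR20 cells, 6 of the 10 genes rose relative to 4T1 cells and none fell, at an adjusted p under 0.05 from limma, called passing below. An unadjusted p under 0.05 gave 6 and 0 as well. Of all genes tested, 15.4% rose and 17.1% fell by the same rule. In DR500 cells, 6 of the genes rose and 3 fell, against 20.2% and 21.3% of all genes. This balance of all genes depends on the scaling, since 48.8% of calls were rises in the deposited values, 61.8% after a repeated quantile normalization and 62.0% after centring each array. The median log2 fold change of the 10 genes was 0.34 in MR20 and 0.34 in DR500, beside -0.01 and 0.07 over all genes. Only Fst passed 2-fold in MR20, where 1.41% of all genes rose and 1.08% fell beyond that size. In DR500, Smad3 rose and Inhba fell beyond 2-fold, against 2.47% and 3.09% of all genes. Between the selected lines directly, 3 genes were higher and 3 lower in DR500 than in MR20, against 21.2% and 20.6% of all genes. Without DR500 replicate 1, 5 members were lower, Tgfb2 and Tgfbr2 being added. Beyond 2-fold, Inhba was lower and no member was higher, against 3.23% and 2.87% of all genes. The 3 arrays of MR20 lay wholly above those of 4T1 for 7 members and wholly below for 1, against 21.4% and 23.8% of all genes. For DR500 against 4T1 these counts were 6 and 3, against 25.7% and 24.4%, and for DR500 against MR20 they were 4 and 4, against 26.4% and 23.4%. Both selected lines were compared with the same 4T1 arrays, so their changes are not independent of each other.

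**Figure D1:**
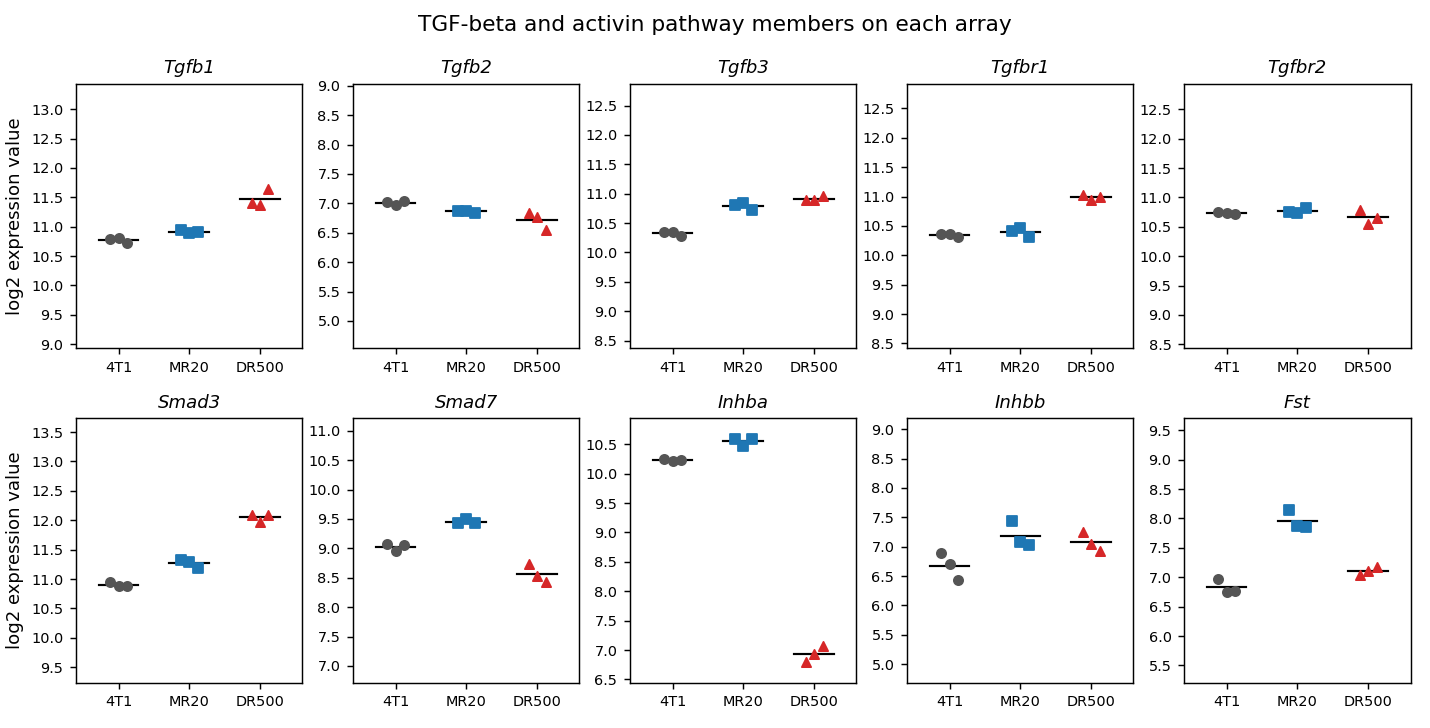
Log2 expression value (y axis) of each gene on the 3 arrays of 4T1, MR20 and DR500 (x axis). Points are arrays, horizontal bars are means, and every panel spans the same number of log2 units. Inhba lies between 6.79 and 7.07 in DR500 and above 10.2 elsewhere, while Tgfbr2 overlaps between the lines.

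Inhba, the activin A subunit gene, had the largest change of the 10 genes in DR500. Its log2 values were 10.24, 10.21 and 10.24 in 4T1, 10.59, 10.48 and 10.59 in MR20, and 6.79, 6.94 and 7.07 in DR500. The 3 lines did not overlap, with MR20 highest and DR500 far below both. Its log2 fold change in DR500 was -3.30 (standard error, SE, 0.07, or 9.84-fold lower, adjusted p = 5.73e-10 from limma), which ranked 70 by size among the 19938 genes. In MR20 it rose by 0.32 (SE 0.07, 1.25-fold, adjusted p = 0.00688), and the direct difference between DR500 and MR20 was -3.62 (SE 0.07, 12.3-fold, adjusted p = 1.84e-10). The genes of closest pattern, measured as the distance between the pairs of log2 fold changes in MR20 and DR500, were Dennd2d (0.09), Grhl2 (0.13), Grb7 (0.20), Wnt7a (0.23) and Dsg2 (0.26). RNA was taken from whole wells, so fewer cells with the transcript and less of it per cell cannot be told apart.

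Most epithelial markers fell in DR500, the line in which Inhba fell. Of 10 mammary epithelial markers, 8 fell and 1 rose in DR500, with a median of -3.21, where 21.3% and 20.2% of all genes did. Krt8 did not pass there (0.03) and Trp63 rose (0.36). In MR20, 5 rose and none fell, against 15.4% and 17.1% of all genes. Epcam, an epithelial surface gene, lay between 10.98 and 11.02 in 4T1, 10.78 and 10.89 in MR20, and 6.75 and 6.91 in DR500. The mean log2 value of the 10 markers per array ranged from 11.01 to 11.05 in 4T1, 11.32 to 11.35 in MR20 and 7.99 to 8.14 in DR500. The part of these markers in the changes of the pathway was not tested. Nearly all these markers stayed above background in DR500, 9 of 10 lying over the 95th percentile of 1194 olfactory and vomeronasal receptor genes, which stand here for unexpressed genes, and Esrp1 lying below it. Fibroblast markers had a mean per array of 5.77 to 5.87 in 4T1, 5.83 to 5.86 in MR20 and 5.99 to 6.11 in DR500. In DR500, 2 of 9 rose and 1 fell, or 22.2% and 11.1%, near or below the 20.2% and 21.3% of all genes. The rises were those of Pdgfra (1.70) and of Dcn, whose mean in 4T1 lay below that percentile. The fall was that of Postn, whose means of 5.52 in 4T1 and 4.55 in DR500 lay below it. In MR20, Postn rose (fitted difference 1.34) and Pdgfra fell (-0.63), or 11.1% each, against 15.4% and 17.1% of all genes. DR500 against MR20, 5 of the 9 were higher and 1 lower, or 55.6% and 11.1%, against 21.2% and 20.6% of all genes. Among 8 leukocyte markers, Cd53, Cd68 and Cd14 rose in both lines and none fell. These rises were 37.5% of the list, against 15.4% of all genes in MR20 and 20.2% in DR500. The mean of Cd53 in 4T1 lay below the receptor percentile. The other 5 markers passed in neither line, and of them only Csf1r lay above that percentile, in 4T1. The defining leukocyte gene Ptprc thus stayed below it in all 3 lines. The mean of these 8 markers was 5.92 to 5.97 in 4T1, at least 6.36 in MR20 and 6.85 to 6.92 in DR500. None of 6 endothelial markers passed in either line, with 0 and 2 at an unadjusted p under 0.05 in limma. Of 4 platelet markers 1 rose in each line and 1 fell in DR500, or 25% each time, beside the shares of all genes given above. The receptor percentile was 5.56 in 4T1, 5.55 in MR20 and 5.66 in DR500, and all 10 members lay above it in every line. In DR500, Inhba averaged 6.93, above 99.4% of the receptor genes but below the brightest of them, at 8.54. The size of its fall rests on this dim level. Fst in 4T1 averaged 6.83, where the brightest receptor gene stood at 8.02.

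Inhbb, the other activin beta subunit gene, was dim and more variable between wells. It gave 6.90, 6.70 and 6.44 in 4T1, 7.43, 7.09 and 7.04 in MR20, and 7.25, 7.05 and 6.92 in DR500. Both selected lines lay above 4T1 without overlap and overlapped each other. The rise was 0.51 in MR20 (SE 0.14, adjusted p = 0.0167 from limma) and 0.40 in DR500 (SE 0.14, adjusted p = 0.0433). The former missed the threshold without 4T1 replicate 3 (0.39, adjusted p = 0.0665) or MR20 replicate 1 (0.39, adjusted p = 0.0650). The latter missed the threshold without 4T1 replicate 2 (0.41, adjusted p = 0.0853) or 3 (0.27, adjusted p = 0.166). It also missed it without DR500 replicate 1 (0.31, adjusted p = 0.138) or 2 (0.41, adjusted p = 0.0852). In DR500, then, Inhba fell and Inhbb had a small rise that depends on single arrays.

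Fst, whose product neutralizes activin, rose 2.18-fold in MR20 cells. Its values were 6.97, 6.76 and 6.77 in 4T1, 8.15, 7.87 and 7.85 in MR20, and 7.04, 7.11 and 7.18 in DR500. Each MR20 array lay above every DR500 array, and each DR500 array above every 4T1 array. The change was 1.13 in MR20 (SE 0.09, adjusted p = 9.15e-06 from limma), 0.28 in DR500 (SE 0.09, adjusted p = 0.0325) and -0.85 in DR500 against MR20 (adjusted p = 3.11e-05). The small rise in DR500 missed the threshold without 4T1 replicate 2 (0.24, adjusted p = 0.110) or 3 (0.25, adjusted p = 0.106). It also missed it without DR500 replicate 2 (0.28, adjusted p = 0.0739) or 3 (0.25, adjusted p = 0.0833). Genes of the closest pattern to Fst were A530032D15Rik (distance 0.02), Gbp8 (0.03), Rhpn2 (0.06), Fgd3 (0.08) and Ifi202b (0.09).

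The TGF-beta ligand genes changed by less than 2-fold, Tgfb1 and Tgfb3 upward and Tgfb2 downward in DR500. Tgfb1 gave 10.80, 10.81 and 10.72 in 4T1, 10.94, 10.88 and 10.91 in MR20, and 11.40, 11.37 and 11.65 in DR500. DR500 arrays were the highest, with replicate 3 above the other two, and 4T1 and MR20 lay close together. Tgfb1 rose 1.62-fold in DR500 (0.69, SE 0.08, adjusted p = 3.41e-05 from limma), while the difference of 0.13 in MR20 did not pass (95% interval -0.04 to 0.30, adjusted p = 0.238). Tgfb3 ranged from 10.29 to 10.35 in 4T1, 10.73 to 10.84 in MR20 and 10.89 to 10.96 in DR500. It rose in both lines, by 0.46 in MR20 (SE 0.06, adjusted p = 1.23e-04) and by 0.58 in DR500 (SE 0.06, adjusted p = 1.38e-05), and the lines differed by 0.12 (95% interval -0.01 to 0.24, adjusted p = 0.120), which did not pass. Tgfb2 was dim, with ranges of 6.98 to 7.03 in 4T1, 6.84 to 6.87 in MR20 and 6.54 to 6.84 in DR500. It fell by 0.29 in DR500 (SE 0.08, adjusted p = 0.00950), and the change of -0.15 in MR20 did not pass (95% interval -0.31 to 0.02, adjusted p = 0.187). Without DR500 replicate 1, the direct difference of Tgfb2 between DR500 and MR20 passed (-0.21, adjusted p = 0.0478), and with all arrays it did not (-0.15, adjusted p = 0.150).

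The type I receptor gene rose in DR500, and the type II receptor gene passed in no comparison. Tgfbr1 gave 10.37, 10.37 and 10.32 in 4T1, 10.41, 10.46 and 10.31 in MR20, and 11.03, 10.95 and 10.99 in DR500. All DR500 arrays lay above the others, and 4T1 and MR20 overlapped. Tgfbr1 rose 1.56-fold in DR500 (0.64, SE 0.06, adjusted p = 9.59e-06 from limma) and differed by 0.04 in MR20 (95% interval -0.09 to 0.17, adjusted p = 0.695). Tgfbr2, which binds the TGF-beta ligands first, ranged from 10.72 to 10.75 in 4T1, 10.74 to 10.82 in MR20 and 10.55 to 10.79 in DR500. Its differences were 0.03 in MR20 (95% interval -0.12 to 0.18, adjusted p = 0.836) and -0.08 in DR500 (95% interval -0.22 to 0.07, adjusted p = 0.386). Against MR20 it was lower in DR500 by a difference of -0.11 (adjusted p = 0.231), which passed without DR500 replicate 1 (-0.17, adjusted p = 0.0458).

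Smad3 and Smad7, the transducer and its inhibitor, rose together in MR20 and went opposite ways in DR500. Smad3 gave 10.94, 10.88 and 10.89 in 4T1, 11.32, 11.29 and 11.18 in MR20, and 12.09, 11.97 and 12.09 in DR500. Smad7 gave 9.07, 8.96 and 9.05 in 4T1, 9.43, 9.50 and 9.43 in MR20, and 8.73, 8.53 and 8.43 in DR500. For both genes the 3 lines did not overlap, in the order 4T1, MR20, DR500 for Smad3 and DR500, 4T1, MR20 for Smad7. The rise of Smad3 was 0.36 in MR20 (SE 0.06, limma adjusted p = 0.00109) and 1.14 in DR500, or 2.21-fold (SE 0.06, adjusted p = 2.07e-07). Smad7 rose by 0.43 in MR20 (SE 0.08, adjusted p = 0.00185) and fell by 0.46 in DR500 (SE 0.08, adjusted p = 7.64e-04). DR500 against MR20, Smad3 was higher by 0.78 (adjusted p = 2.90e-06) and the Smad7 difference was -0.89 (adjusted p = 7.10e-06).

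**Figure D2:**
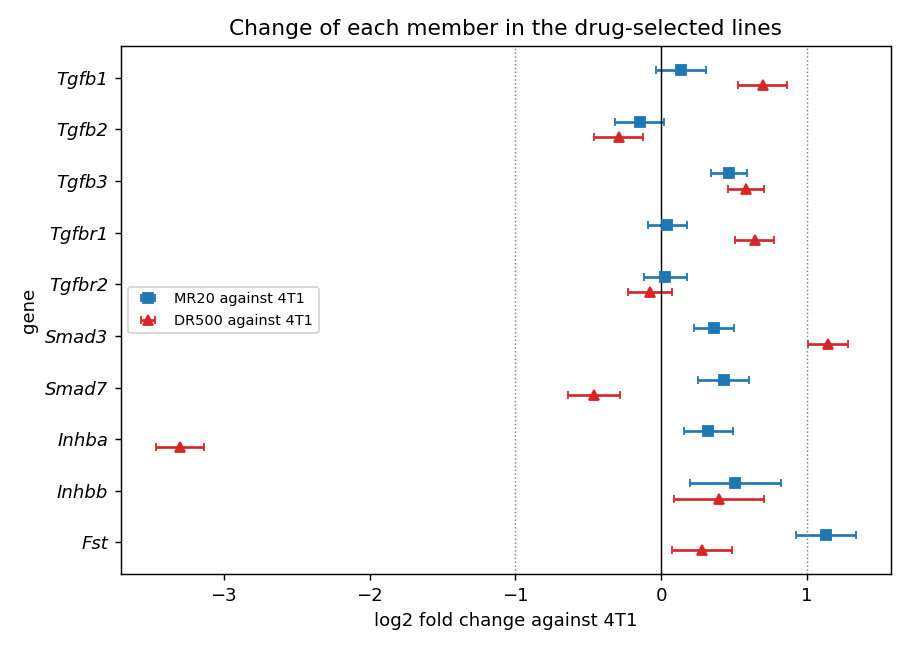
Log2 fold change against 4T1 (x axis) of the 10 genes (y axis) in MR20 (squares) and DR500 (triangles), with 95% intervals from limma. Dotted lines mark 2-fold, which Fst passes in MR20 at 1.13 and Smad3 and Inhba pass in DR500 at 1.14 and -3.30.

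Other genes of the pathway were taken from lists by role, with 133 of 141 measured through a probe set of their own. Of these, 37 rose and 17 fell in MR20 and 45 rose and 24 fell in DR500, with medians of 0.02 and 0.12. That is 27.8% and 12.8% of the 133 in MR20, where 15.4% and 17.1% of all genes rose and fell, and 33.8% and 18.0% in DR500, where 20.2% and 21.3% did. The counts of each list below are to be read against these shares of all genes. The lists, like the members, were chosen with earlier results of these data known. Among 26 other ligands, none rose and 2 fell in MR20 (2 and 2 at an unadjusted p under 0.05 in limma), and 3 rose and 1 fell in DR500. The count of rises in DR500 was 1 without 4T1 replicate 1 or 3, and 5 without DR500 replicate 3. It was 6 after a repeated quantile normalization, 8 after centring and 0 with a filter on dim genes. The count of falls in DR500 was 2 without DR500 replicate 1, with the filter or with an intensity trend. In MR20 the count of rises was 2 in a fit of only the lines compared or after centring. It was 1 after a repeated quantile normalization, with the filter or with the trend. Bmp7, a bone morphogenetic protein, lay between 9.99 and 10.05 in 4T1, 8.58 and 8.87 in MR20, and 7.87 and 7.94 in DR500. It fell by 1.30 in MR20 and by 2.12 in DR500, and Bmp1, a protease despite its name, fell by 0.32 in MR20. In DR500, Bmp5 and Bmp8b rose. So did Nodal, named after its values were seen, whose means of 5.16 in 4T1 and 5.42 in DR500 lay below the receptor percentile. The fitted difference of 0.49 for Bmp5 is no measured size, since its mean in 4T1 lay below the receptor percentile of 5.56. Bmp8b rose by 0.28, missing the threshold without 4T1 replicate 1 (0.25, adjusted p = 0.0769) or 3 (0.29, adjusted p = 0.0517).

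Receptors rose in DR500 cells in 7 of 14 cases and fell in none (8 and 0 at an unadjusted p under 0.05 in limma), beside 20.2% and 21.3% of all genes. The 7 include Acvr1c, named after its values were seen, whose means of 4.68 in 4T1 and 4.90 in DR500 lay below the receptor percentile. Tgfbr3, the co-receptor betaglycan, which presents TGF-beta 2 and inhibin, gave 8.69, 8.62 and 8.71 in 4T1, 8.58, 8.33 and 8.24 in MR20, and 10.36, 10.40 and 10.46 in DR500. It rose by 1.73 in DR500, while Acvr1, a type I receptor of the family, rose by 1.16 and Eng, the co-receptor endoglin, by 0.90. The activin receptors Acvr1b (0.68) and Acvr2a (0.79), named after their values were seen, also rose in DR500. In MR20, 2 receptor genes rose, Acvr1 (0.43) and Eng (0.40), and 2 fell, Bmpr1a (-0.56) and Tgfbr3 (-0.29). This fall of Tgfbr3 missed the threshold without 4T1 replicate 1 (adjusted p = 0.0635) or 3 (0.0690). It also missed it without MR20 replicate 2 (0.0738) or 3 (0.0814), and after centring each array (0.0721), which leaves 1 fall in each case. Of 6 other Smad genes, 1 rose and 2 fell in DR500, and 1 rose and 1 fell in MR20. Smad2, the other transducer of TGF-beta and activin, ranged from 9.83 to 9.90 in 4T1, 9.97 to 10.02 in MR20 and 8.90 to 9.07 in DR500. It fell by 0.86 in DR500, where Smad4, the common partner, fell by 0.36 and the inhibitory Smad6 rose by 0.37. In MR20, Smad5 rose by 0.42 and Smad1 fell by 0.30, both transducers of bone morphogenetic proteins.

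**Figure D3:**
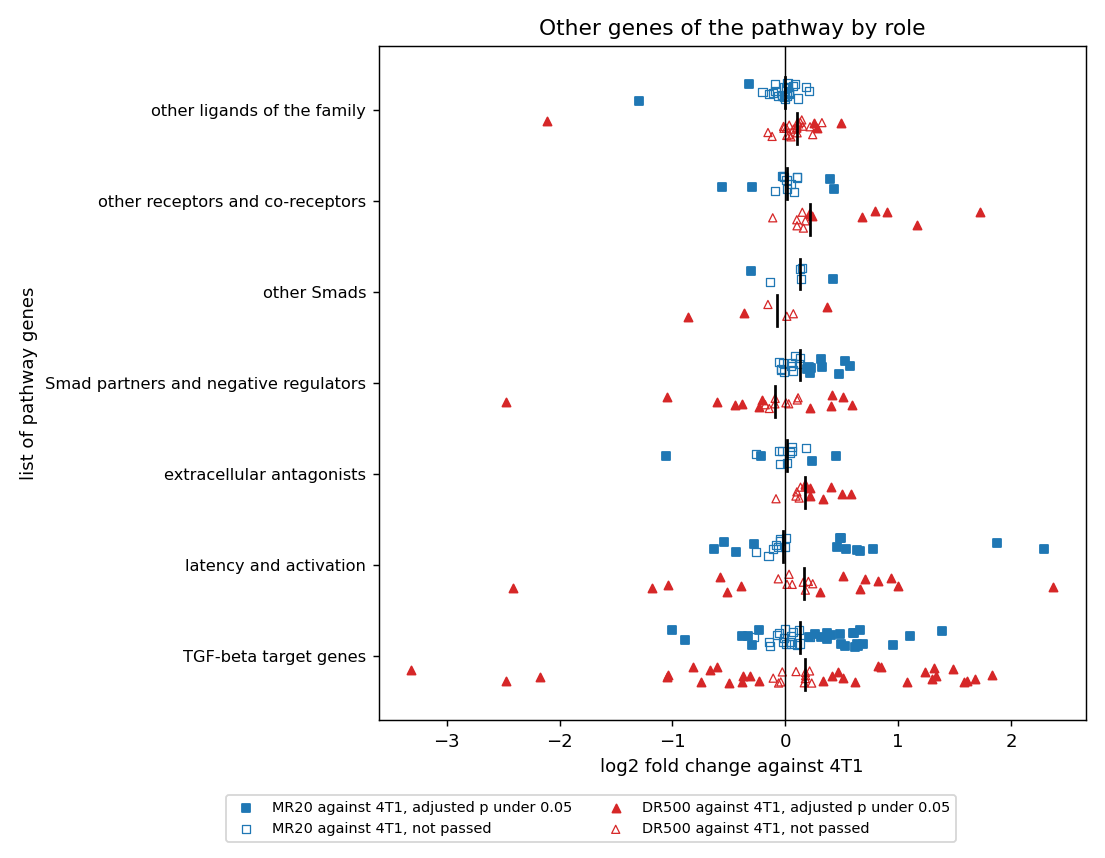
Log2 fold change against 4T1 (x axis) of other pathway genes in 7 lists (y axis), in MR20 (squares) and DR500 (triangles). Filled points passed at an adjusted p under 0.05 from limma, and vertical bars are medians, which are 0.13 in MR20 and -0.09 in DR500 for the partners and negative regulators.

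Partners and negative regulators of the Smads rose or did not pass in MR20 and moved both ways in DR500. Of 20 genes, MR20 had 9 rises and 0 falls (9 and 0 at an unadjusted p under 0.05 in limma), and DR500 had 5 rises and 7 falls. Rises thus made up 45.0% of the list in MR20, against 15.4% of all genes. In DR500 rises made up 25.0% and falls 35.0%, against 20.2% and 21.3% of all genes. DR500 against MR20, 2 were higher and 11 lower, or 10.0% and 55.0%, against 21.2% and 20.6%. Pmepa1, a TGF-beta target that limits Smad activation, gave 11.82, 11.78 and 11.78 in 4T1, 12.28, 12.30 and 12.38 in MR20, and 9.31, 9.26 and 9.38 in DR500. It rose by 0.53 in MR20 and fell by 2.48 in DR500 (adjusted p = 5.73e-10 from limma), the same directions as Smad7. The corepressor gene Skil fell by 1.05 in DR500, and the ubiquitin ligase gene Smurf2 rose by 0.32 in MR20 and fell by 0.61 in DR500. In MR20, Hgs, an endosomal sorting gene, rose by 0.57 and the coactivator gene Ep300 by 0.48. Of 13 extracellular antagonists other than Fst, 2 rose and 2 fell in MR20 and 7 rose and none fell in DR500 (7 and 0 at an unadjusted p under 0.05 in limma), beside 20.2% and 21.3% of all genes. With a filter on dim genes 4 rose in DR500. Among the 7 were Fstl3, named after its values were seen (0.18, adjusted p = 0.0496), and Nog (0.22). Nog in DR500 missed the threshold with the replicate number as a block (adjusted p = 0.0579) or with an intensity trend (0.0814). It also missed it without 4T1 replicate 1 (0.0900) or 3 (0.139), or without DR500 replicate 1 (0.112) or 2 (0.0980). Nbl1, an antagonist of bone morphogenetic proteins, fell by 1.06 in MR20 and rose by 0.34 in DR500. In MR20, Htra1, a secreted protease, rose by 0.45 and Nog by 0.24. The rise of Nog in MR20 missed the threshold with the replicate number as a block (adjusted p = 0.0516), with an intensity trend (0.0676), without 4T1 replicate 1 (0.0845) or 3 (0.120), or without MR20 replicate 2 (0.108) or 3 (0.117). Twsg1 (0.58), Chrd (0.41) and Grem1, which bind bone morphogenetic proteins, rose in DR500. The fitted difference of 0.50 for Grem1 is no measured size, since its mean in 4T1 lay below the receptor percentile. Twsg1, the second antagonist to fall in MR20 (-0.22), missed the threshold there without 4T1 replicate 1 (adjusted p = 0.0501) or MR20 replicate 2 (0.0515). It also missed it after centring each array (0.0875).

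TGF-beta ligands are secreted in a latent form, and 22 genes of latency and activation were measured. Of these, 9 rose and 4 fell in MR20, and 8 rose and 6 fell in DR500. The integrin genes among them activate latent TGF-beta at the cell surface. Itgb6, whose product releases active TGF-beta, lay between 7.18 and 7.47 in 4T1, 7.73 and 8.10 in MR20, and 4.83 and 4.95 in DR500, below the receptor percentile of 5.66. It rose by 0.63 in MR20 and fell in DR500, and the fitted difference of -2.42 is no measured size, since the DR500 level is not above background. Itgb3 rose by 1.88 in MR20 and 2.38 in DR500. Itgb8, another integrin of latent TGF-beta, rose by 0.78 in MR20 and fell in DR500 (fitted difference -0.58), where its mean also lay below the receptor percentile. The gelatinase gene Mmp9 rose by 2.29 in MR20 and by 1.00 in DR500, and Pcsk6, a proprotein convertase, fell by 1.18 in DR500. The binding protein gene Ltbp1, named after its values were seen, fell by 0.43 in MR20 and rose by 0.93 in DR500.

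Genes known as targets of TGF-beta moved both ways in DR500 cells. The list does not separate genes that TGF-beta raises from genes that it lowers, so its counts and medians are no measure of pathway activity. Of 42 measured, 19 rose and 6 fell in MR20, and 17 rose and 14 fell in DR500, with medians of 0.13 and 0.18. That is 45.2% and 14.3% of the list in MR20, against 15.4% and 17.1% of all genes, and 40.5% and 33.3% in DR500, against 20.2% and 21.3%. Beyond 2-fold, 2 rose and 1 fell in MR20, against 1.41% and 1.08% of all genes, and 10 rose and 5 fell in DR500, against 2.47% and 3.09%. The 10 include Lox, named after its values were seen. Its means of 4.46 in 4T1 and 5.54 in DR500 lay below the receptor percentile, so its difference is no measured size. Of the 42 genes, 10 stand in another of the lists, Pmepa1 and Skil among them. Ccn2, a matrix protein gene, gave 11.89, 11.91 and 11.98 in 4T1, 11.57, 11.56 and 11.50 in MR20, and 8.52, 8.58 and 8.72 in DR500. It fell by 3.32 in DR500 (adjusted p = 3.05e-10 from limma), and the growth factor gene Pdgfb rose by 0.96 in MR20 and fell by 2.18 in DR500. Other targets rose in DR500, among them Il11, a cytokine gene (1.83), Acta2, a smooth muscle actin gene (1.68), and Tgfbi, a matrix adhesion gene (1.61), all named after their values were seen. In MR20, the transcription factor gene Bhlhe40 rose by 1.39 and Id1 by 1.11, and Sphk1, a lipid kinase gene, fell by 1.00.

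**Figure D4:**
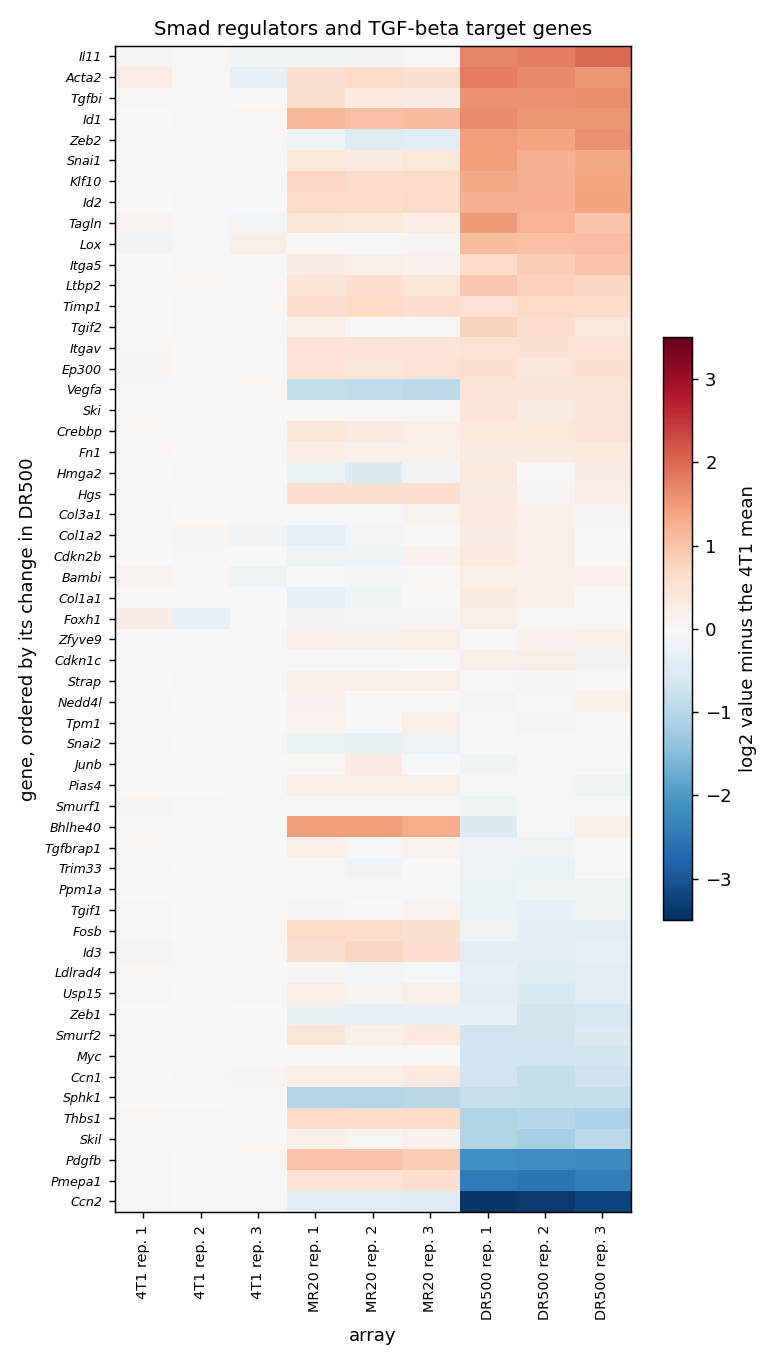
Log2 value minus the 4T1 mean (colour, from -3.41 to 1.98) of 56 Smad partners, negative regulators and TGF-beta target genes (rows, ordered by their change in DR500) on the 9 arrays (columns). Pmepa1 and Pdgfb are above 0 in MR20 and far below 0 in DR500, and Ccn2 is lowest in DR500.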

How the data were processed

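RNA from 3 wells each of 4T1, MR20 and DR500 cells was measured on Affymetrix mouse arrays of 1 colour that cover whole transcripts. The authors made the deposited log2 values by robust multi-array normalization with affy, whose version is not given in the sources used here. Of 35556 probe sets, 21789 had 1 gene symbol and were assigned to 19938 genes, 21698 of them by Entrez identifier, and the brightest stood for the 999 genes with several. All 10 members had 1 probe set each. Genes without a probe set of their own were not analysed here. One fit with a mean per line and 6 residual degrees of freedom was made with limma 3.58.1 in R 4.3.3, with Benjamini-Hochberg adjustment over 19938 genes and no filter on dim genes. The fit was tested on simulated data. The precision is limited by 3 arrays per line. An exact permutation test of 3 against 3 cannot go below p = 0.1.

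The members and lists were chosen with earlier results of these data known. Named were all members, of each list up to 3 genes with the largest passing change in each comparison against 4T1, and the 5 genes nearest in pattern to the member with the largest change in a comparison. Array batches are not given in the sources used here. The alternatives tried were a separate fit for each pair of lines, the replicate number as a block, repeated quantile normalization, centring, a filter on dim genes, the mean of probe sets, a test of all probe sets, an intensity trend, and leaving out each array. Promoter sequences came from a table of RefSeq promoters (GRCm38.p6). A chromosome was left out of the search, and 7 of the 10 members were matched in the rest. Tgfb3, Smad7 and Fst had no stretch in the search, so nothing is said of their promoters.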

Additional observations from a re-analysis of the deposited data

Results flagged for a closer look

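The change from 4T1 differed between the selected lines, by the test of DR500 against MR20 in limma, for 6 of the 10 genes, 3 higher and 3 lower. Of all genes, 21.2% were higher and 20.6% lower in that comparison. The log2 difference was 0.56 for Tgfb1, 0.60 for Tgfbr1, 0.78 for Smad3, -0.89 for Smad7, -3.62 for Inhba and -0.85 for Fst. For Inhba and Smad7 the change from 4T1 passed in opposite directions, a rise in MR20 and a fall in DR500, with 3 of 3 arrays of each line on that side of every 4T1 array.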

How the results depend on the processing

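Over the 30 member changes, 405 of 420 values under an alternative kept their direction and their side of the threshold. The 6 differences between DR500 and MR20 and the changes of Inhba, Smad3, Smad7 and Tgfb3 against 4T1 did so in every alternative, with Inhba in DR500 between -3.37 and -3.23. The exceptions concerned Inhbb, Fst in DR500, Tgfb2, Tgfbr2 and Tgfb3. Inhbb in DR500 against MR20 turned from -0.11 to 0.0098 without MR20 replicate 1 and ranged from -0.20 to 0.0098 without single arrays, and passed in none of these. The count of members that fell in MR20 went from 0 to 1, Tgfb2, in a fit of only the lines compared (adjusted p = 0.0454), and Tgfb3 passed between DR500 and MR20 with an intensity trend (adjusted p = 0.0488). Without single arrays, members that rose numbered 5 to 6 in MR20 and 4 to 6 in DR500, and members that fell 0 to 0 and 3 to 3. Members lower in DR500 than in MR20 numbered 3 to 5, with 5 without DR500 replicate 1. Correlations of deviations between arrays of the same replicate number ran from -0.31 to 0.33. They were not set against arrays of different numbers, so they cannot decide whether the numbers pair the arrays. With the number as a block the counts of members stayed at 6 and 0 in MR20 and 6 and 3 in DR500. All 10 members passed the filter on dim genes.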
